A study of Mus musculus with 12 samples.

Results

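The 34 genes described here carry glucose into the cell, break it down to pyruvate and decide what becomes of the pyruvate. They comprise 3 glucose transporters, 3 hexokinases, the isomerase Gpi1, 3 phosphofructokinases, 3 regulatory Pfkfb enzymes, the enzymes from aldolase to pyruvate kinase, both lactate dehydrogenase subunits, 2 lactate carriers, 5 genes of pyruvate entry into mitochondria, and Hif1a. Members were taken by gene symbol from the gene-level expression table, in which each of the 34 symbols had a single row, out of 39462 genes with a symbol. The OT-I line of mice carries a transgenic receptor, so that most of its CD8 T cells recognise the same piece of ovalbumin on class I molecules. N4 is the strong native agonist peptide, and Y3 is an altered peptide that stimulates the same receptor more weakly.

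Cultures of OT-I splenocytes were primed for 4 days, and RNA was hybridised to 12 mouse transcriptome arrays in 4 groups of 3. The groups were cells primed with Y3 in the presence of a corticosteroid, cells primed with Y3 alone, cells primed with N4 in the presence of a corticosteroid, and cells primed with N4 alone. They are called Y3 plus steroid, Y3, N4 plus steroid and N4. All 4 groups share the OT-I receptor transgene and the same culture medium. The name and dose of the steroid, the age and sex of the mice, and whether the 3 replicates came from separate mice are not given in the sources used here. P-values therefore measure the spread between these arrays, which may in part be technical. The replicate numbers 1 to 3 were treated as pairs, since deviations from the group means correlated positively between all arrays with the same number, so results are given without and with the replicate number as a block.

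Glycolysis splits glucose into pyruvate in the cytosol and yields a little ATP, reduced cofactor and carbon skeletons for growth. Resting T cells run it slowly, and activated CD8 T cells switch to fast glycolysis with lactate release while they divide. The transcription factors HIF-1 and MYC are known to drive genes of the pathway, and glucocorticoids act through a receptor that is itself a transcription factor.

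The values are log2 signals of the deposited gene-level table. A signal was counted as above background when it exceeded the brightest background control of its array, which lay at 5.41 to 6.40. Of the 34 genes, 29 were above that line on all 12 arrays. Mpc1 was above it on 11 arrays, Mpc2 on 10, Pfkfb2 on 5, and Hk3 and Eno2 on 1 each. All 7 T cell markers examined (Cd3e, Cd3d, Cd3g, Cd8a, Cd8b1, Thy1 and Lck) were above the line on every array. Above it on at least 1 array were 1 of 6 B cell markers, 3 of 8 myeloid and dendritic cell markers, 3 of 4 markers of CD4 and regulatory T cells, 2 of 4 NK cell markers, 1 of 5 neutrophil markers and 0 of 6 erythroid markers. Tsc22d3, a classic glucocorticoid target, had log2 signals of 9.10, 10.24 and 10.13 in Y3 plus steroid, 7.76, 8.52 and 8.41 in Y3, 7.60, 9.34 and 10.07 in N4 plus steroid and 7.34, 7.86 and 8.61 in N4. It was higher with steroid in every pair, by 1.60 in Y3-primed and 1.07 in N4-primed cells, although neither difference passed the threshold over all genes. Of the 4 genes checked for a steroid response, Nr3c1, Tsc22d3, Fkbp5 and Per1, Tsc22d3 had the highest difference under both peptides. The 4 ranged from 0.0003 to 1.60 in Y3-primed cells, with a median of 0.52. In N4-primed cells they ranged from -0.07 to 1.07, with a median of 0.27 and 1 below 0. None of the 4 passed.

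Most of the 34 genes had their lowest signals in Y3 plus steroid and their highest in N4. The group mean was lowest in Y3 plus steroid for 27 genes (79.4%), against 30.5% of all genes, and highest in N4 for 26 genes (76.5%), against 28% of all genes. In 22 of the 34 (64.7%) the means ran in the full order Y3 plus steroid, Y3, N4 plus steroid and N4 from low to high, an order found in 12.9% of all genes. These shares are descriptions, since genes of a pathway are not independent of each other. RNA was measured in bulk cultures, so fewer cells of a type and less RNA per cell cannot be told apart.

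The arrays of a group were not alike. When each gene was centred on its own mean over the 12 arrays, the median of the 34 genes was -0.06, -0.42 and -0.46 on the Y3 plus steroid arrays, 0.02, -0.07 and -0.19 on the Y3 arrays, 0.06, 0.06 and 0.25 on the N4 plus steroid arrays and 0.42, 0.22 and 0.24 on the N4 arrays. Y3 plus steroid replicates 2 and 3 thus stood below the other 10 arrays, while replicate 1 of that group lay within the range of the Y3 arrays. Y3 plus steroid replicate 3 was the lowest of the 12 arrays for 14 genes (41.2%, against 7% of all genes), and replicate 2 for 6 genes (17.6%, against 9.2%). N4 replicate 1 was the highest array for 18 genes (52.9%, against 11.1%).

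**Figure D1:**
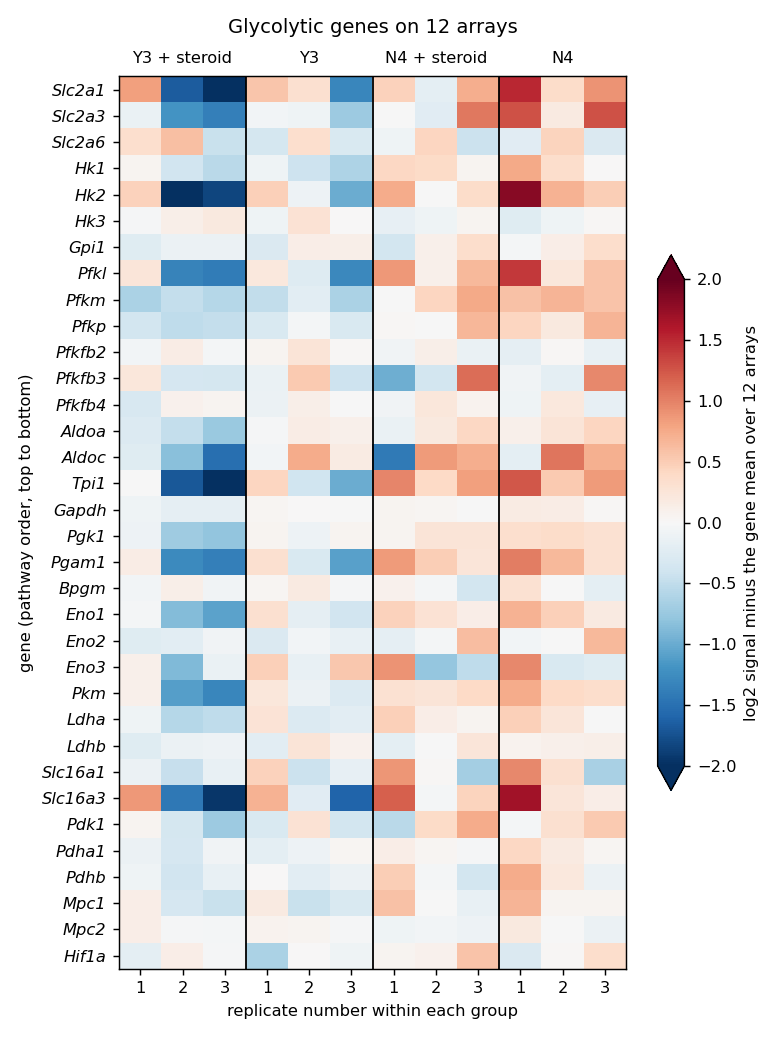
Log2 signal of each of the 34 genes on each of the 12 arrays, minus the gene's mean over the 12 arrays, with genes in pathway order down the page and arrays grouped by peptide and steroid. Blue cells collect on replicates 2 and 3 of Y3 plus steroid and red cells on replicate 1 of N4. Colours saturate at a difference of 2 in either direction.

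Promoter sequences are shown for 4 genes of the pathway with lower signals after Y3 priming. Hk1 and Pgam1 were among the 4 genes that passed the threshold with the replicate block both with and without steroid. Ldha is the enzyme that ends the path to lactate, and Tpi1 had the largest peptide difference of the 34 with steroid. The windows run from 250 bases before to 50 bases after an annotated transcription start and come from RefSeq on build GRCm38.p6. Capitals mark ACGTG, the core of the hypoxia response element, or its reverse complement CACGT. Where a gene had several starts, the window with the most matches is printed. Hk1 lies at chr10:62340372-62340671 on the minus strand, Pgam1 at chr19:41911621-41911920 on the plus strand, Ldha at chr7:46845554-46845853 on the plus strand and Tpi1 at chr6:124814109-124814408 on the minus strand, each written 5′ to 3′ on the gene's strand.
Hk1: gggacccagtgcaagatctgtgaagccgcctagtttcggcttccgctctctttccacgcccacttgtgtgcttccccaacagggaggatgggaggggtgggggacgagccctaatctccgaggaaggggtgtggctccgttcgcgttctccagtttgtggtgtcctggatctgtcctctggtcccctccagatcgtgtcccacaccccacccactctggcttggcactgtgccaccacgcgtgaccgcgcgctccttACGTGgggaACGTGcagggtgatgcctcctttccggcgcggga
Pgam1: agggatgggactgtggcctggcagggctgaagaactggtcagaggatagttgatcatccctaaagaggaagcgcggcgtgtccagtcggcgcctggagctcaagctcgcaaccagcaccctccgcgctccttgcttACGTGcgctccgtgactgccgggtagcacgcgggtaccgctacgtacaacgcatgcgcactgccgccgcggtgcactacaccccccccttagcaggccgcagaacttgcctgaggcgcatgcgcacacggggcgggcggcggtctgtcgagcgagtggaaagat
Ldha: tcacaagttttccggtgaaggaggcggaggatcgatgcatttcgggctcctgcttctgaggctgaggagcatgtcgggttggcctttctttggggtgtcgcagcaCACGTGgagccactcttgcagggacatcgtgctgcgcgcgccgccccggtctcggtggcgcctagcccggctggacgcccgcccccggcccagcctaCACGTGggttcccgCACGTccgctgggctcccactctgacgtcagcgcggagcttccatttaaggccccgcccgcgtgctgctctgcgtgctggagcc
Tpi1: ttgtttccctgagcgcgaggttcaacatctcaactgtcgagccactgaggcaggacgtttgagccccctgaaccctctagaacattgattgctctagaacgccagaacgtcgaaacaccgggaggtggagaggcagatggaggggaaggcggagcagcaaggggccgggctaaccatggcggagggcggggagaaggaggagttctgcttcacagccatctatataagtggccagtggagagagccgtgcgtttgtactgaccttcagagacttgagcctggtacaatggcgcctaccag

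The Hk1 window holds 2 ACGTG matches and the Pgam1 window 1. The Ldha window holds 5, because 2 palindromic CACGTG boxes, the E-box bound by MYC, each count on both strands, beside 1 single match. The Tpi1 window holds 0. Pfkm and Mpc1, which also passed both with and without steroid, are not shown. Pfkm had at most 3 matches in a window, and Mpc1 had 0. Across the 33 members found in the promoter table, ACGTG on either strand occurred in at least 1 window of 18 genes (54.5%), against 21.8% of 27025 genes in the table. CACGTG occurred in 6 members (18.2%), against 8.09% of all genes. The palindromic glucocorticoid response element, AGAACA and TGTTCT with any 3 bases between them, occurred in 0 members, and in 0.0111% of all genes. Members had 49 windows, and by window ACGTG was found in 44.9%, against 19.6% of all windows. A match is a run of letters in a window of 300 bases and does not show that a factor binds there.

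The first question was how the weak peptide compared with the strong one. In Y3 plus steroid against N4 plus steroid, 29 of the 34 genes were lower, with a median log2 difference of -0.44, against -0.01 over all genes. In Y3 against N4 without steroid, 28 were lower, with a median of -0.32, against 0.00 over all genes. The medians within replicate numbers 1, 2 and 3 were -0.22, -0.49 and -0.65 with steroid and -0.36, -0.25 and -0.41 without. The same 27 genes were below 0 in both comparisons. These use different arrays, but arrays with the same replicate number were taken as pairs across all groups. The comparisons are therefore not independent of each other.

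Without the replicate block, 0 of the 34 genes passed an adjusted p of 0.05 in either comparison, where 0.256% of all genes passed with steroid and 0.0304% without. At an unadjusted p under 0.05, 14 of the 34 were lower and 0 higher with steroid, against 5.84% of all genes lower and 5.24% higher, and 8 were lower and 0 higher without steroid, against 4.44% lower and 4.13% higher. With the block the unadjusted counts were 17 lower and 0 higher with steroid, where 18.4% of all genes passed in either direction, and 16 lower and 1 higher without, where 15.8% passed. With the block, 13 genes were called lower in Y3 plus steroid than in N4 plus steroid. There 6.53% of all genes passed, and 3.09% passed in the lower direction. The 13 were Hk1, Hk2, Pfkl, Pfkm, Pfkp, Aldoa, Tpi1, Pgk1, Pgam1, Eno1, Pkm, Ldha and Mpc1, and each was lower in 3 of 3 pairs. In Y3 against N4 without steroid, 4 genes were called lower with the block, Hk1, Pfkm, Pgam1 and Mpc1. There 2.94% of all genes passed, and 1.24% passed in the lower direction. All of these 4 were among the 13. Of the 34, 0 were called higher with the block, where 3.44% of all genes were with steroid and 1.7% without.

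The blocked counts depended on single arrays. With steroid the 13 became 3 without Y3 plus steroid replicate 2, 6 without Y3 plus steroid replicate 3, 5 without N4 plus steroid replicate 2 and 6 without N4 plus steroid replicate 3. When replicate number 1, 2 or 3 was left out of all groups, 7, 0 and 6 genes passed. When only the 6 arrays of the comparison entered the blocked fit, 0 of the 34 passed with steroid and 2 without. Those 2 were Pfkm and Hk2, so Hk1, Pgam1 and Mpc1 were lost. Without steroid the 4 became 1 without N4 replicate 1 or N4 replicate 2, 2 when N4 replicate 3, or replicate 1 or 3 of Y3, was left out, and 7 without Y3 plus steroid replicate 1. Leaving out replicate number 1, 2 or 3 there gave 0, 0 and 2.

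T cell markers moved in the opposite direction. With the block, Cd8b1, Cd3d and Cd3e of the 7 were called higher in Y3 plus steroid than in N4 plus steroid, and Cd8b1 and Cd3d in Y3 than in N4. The summed linear signal of the 7 markers was 411726 to 561148 in Y3 plus steroid, 371559 to 601585 in Y3, 287008 to 372024 in N4 plus steroid and 312364 to 365737 in N4. Of all genes, 3.44% were called higher with the block in Y3 plus steroid than in N4 plus steroid, and 1.7% in Y3 than in N4. Markers of other cells were called higher as well. With the block these were Cd79b of the 6 B cell markers and Eomes of the 4 NK cell markers in both comparisons, Klrb1c of the NK cell markers and Cd4 of the 4 markers of CD4 and regulatory T cells with steroid, and Itgam of the 8 myeloid markers without. The summed signal was 598 to 716 in Y3 plus steroid, 596 to 785 in Y3, 122 to 264 in N4 plus steroid and 141 to 255 in N4 for the NK cell list, in Y3-primed cells most of it from Eomes, which activated CD8 T cells also express. It was 220 to 300.03 in Y3 plus steroid, 215 to 338 in Y3, 172 to 234 in N4 plus steroid and 179 to 235 in N4 for the B cell list. The myeloid list summed to 422 to 1317 in Y3 plus steroid, 519 to 1398 in Y3, 469 to 1468 in N4 plus steroid and 566 to 1564 in N4, and the CD4 list to 200.5 to 249.7 in Y3 plus steroid, 196 to 217 in Y3, 188 to 228 in N4 plus steroid and 202 to 262 in N4. Of these lists, Ms4a1, Cd79a, Lyz2, Csf1r, Ncr1 and Foxp3 were below background on all 12 arrays. Above it on at least 1 array were 1 of 6 B cell and 3 of 8 myeloid and dendritic cell markers. The same held for 3 of 4 markers of CD4 and regulatory T cells and 2 of 4 NK cell markers. The part of these differences in the glycolytic result was not tested.

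Groups that do not overlap are a plain view of the same data. In Y3 plus steroid, all 3 arrays lay below all 3 N4 plus steroid arrays for 12 of the 34 genes, against 8.59% of all genes. In Y3, all 3 arrays lay below all 3 N4 arrays for 9 genes, against 6.06% of all genes. The reverse was found for Mpc2 alone with steroid, against 7.91% of all genes, and for 0 genes without, against 5.24%. Signals were lower in 3 of 3 pairs for 20 genes with steroid, against 18.1% of all genes, and for 22 without, against 15.2%.

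**Figure D2:**
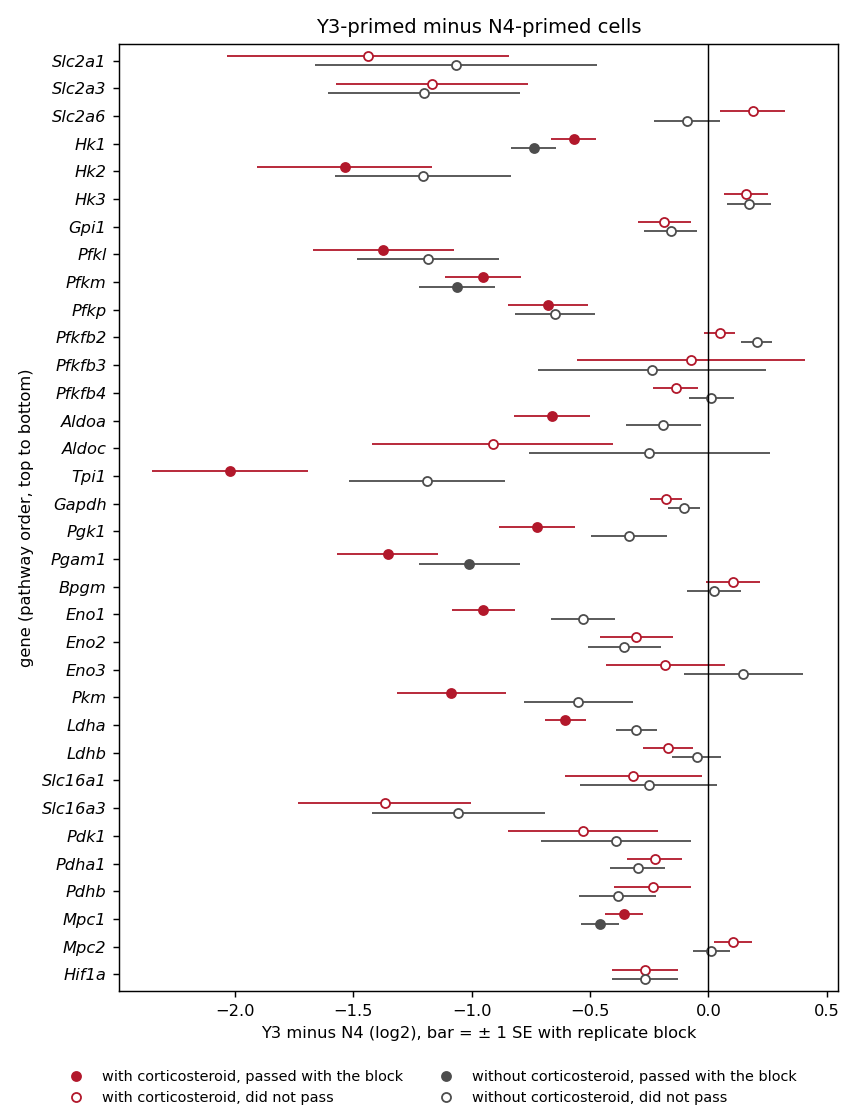
Log2 difference of Y3-primed minus N4-primed cells for each of the 34 genes, with bars of 1 SE from the fit with the replicate block, red with steroid and grey without. Filled points passed an adjusted p of 0.05 with the block, 13 with steroid and 4 without, and all filled points lie below 0. Tpi1 with steroid lies farthest to the left, at -2.02.

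For 2 of the 3 glucose transporters the mean signal was lower in Y3-primed cells in both peptide comparisons, without passing the test. Slc2a1, the widely expressed transporter GLUT1 that activated T cells raise, had log2 signals of 14.78, 12.30 and 11.48 in Y3 plus steroid, 14.52, 14.28 and 12.65 in Y3, 14.42, 13.77 and 14.69 in N4 plus steroid and 15.47, 14.33 and 14.87 in N4. The spread in Y3 plus steroid was wide, with replicate 1 within the range of the N4 arrays and replicates 2 and 3 below all arrays without steroid. The peptide difference was -1.44 ± 0.77 (limma SE) with steroid and -1.07 ± 0.77 without, with adjusted p = 0.557 and 0.807, or 0.234 and 0.455 with the block. Slc2a3, the high-affinity transporter GLUT3, read 13.20, 12.15 and 11.97 in Y3 plus steroid, 13.29, 13.26 and 12.60 in Y3, 13.33, 13.10 and 14.39 in N4 plus steroid and 14.61, 13.52 and 14.62 in N4. Here the Y3 arrays all lay below the N4 arrays, while the groups with steroid overlapped. Its differences were -1.17 ± 0.44 with steroid and -1.20 ± 0.44 without, with adjusted p = 0.146 and 0.174 with the block. Slc2a6, a family member found on lysosomes, went the other way with steroid, at 0.19, and differed by -0.09 without. It had log2 signals of 7.24, 7.51 and 6.47 in Y3 plus steroid, 6.56, 7.24 and 6.61 in Y3, 6.83, 7.35 and 6.48 in N4 plus steroid and 6.68, 7.36 and 6.63 in N4. Its 4 groups overlapped throughout.

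The hexokinases trap glucose in the cell by phosphorylating it. Hk1, the housekeeping form, had log2 signals of 9.19, 8.77 and 8.61 in Y3 plus steroid, 9.06, 8.73 and 8.53 in Y3, 9.55, 9.53 and 9.20 in N4 plus steroid and 9.90, 9.50 and 9.14 in N4. The Y3 arrays lay below the N4 arrays of the same steroid condition without overlap. Hk1 differed by -0.57 ± 0.22 with steroid (0.674 times the N4 plus steroid level) and -0.74 ± 0.22 without (0.599 times). With the block both passed, at adjusted p = 0.0106 with steroid and 0.00713 without, against 0.357 and 0.344 without the block. Of the 12 fits that each left out 1 array, the blocked call held in 10 with steroid and in 12 without. With only the arrays of a comparison in the blocked fit, the Hk1 call was lost in both comparisons.

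Hk2, the inducible hexokinase that proliferating cells raise, read 10.00, 7.40 and 7.70 in Y3 plus steroid, 10.02, 9.43 and 8.54 in Y3, 10.28, 9.53 and 9.91 in N4 plus steroid and 11.35, 10.23 and 10.02 in N4. Y3 plus steroid replicate 1 stayed at the level of N4-primed cells, and replicates 2 and 3 were the lowest of the 12. The difference was -1.54 ± 0.65 with steroid and -1.21 ± 0.65 without, with adjusted p = 0.0417 and 0.133 with the block. Its blocked call with steroid held in 3 of the 12 leave-out fits. Hk3, a hexokinase typical of myeloid cells, was above background on 1 array, Y3 replicate 2, with log2 signals of 5.34, 5.48 and 5.56 in Y3 plus steroid, 5.29, 5.67 and 5.38 in Y3, 5.21, 5.28 and 5.42 in N4 plus steroid and 5.13, 5.29 and 5.39 in N4. On Y3 replicate 2 the median of the negative controls, 5.77, was higher than the Hk3 signal.

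Gpi1, which turns glucose phosphate into fructose phosphate, differed by -0.19 ± 0.18 with steroid and -0.16 ± 0.18 without and passed in neither fit.

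The committed step of the pathway is made by phosphofructokinase, whose subunits are encoded by Pfkl, Pfkm and Pfkp. Pfkm, the form named after muscle, had log2 signals of 8.21, 8.36 and 8.26 in Y3 plus steroid, 8.33, 8.62 and 8.20 in Y3, 8.82, 9.26 and 9.60 in N4 plus steroid and 9.43, 9.52 and 9.40 in N4. All 6 Y3-primed arrays lay below all 6 N4-primed arrays. Pfkm differed by -0.95 ± 0.17 with steroid and -1.06 ± 0.17 without, the smallest adjusted p of the 34 in each comparison without the block, at 0.0644 and 0.0967. With the block these were 0.0101 and 0.0121, and the calls held in 11 and 9 of the 12 leave-out fits. Without the block, Pfkm passed when N4 plus steroid replicate 1 was left out of the fit, both with and without steroid, and without steroid also when N4 plus steroid replicate 3 was left out.

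Pfkp, the platelet form, which is abundant in T cells, read 12.84, 12.70 and 12.73 in Y3 plus steroid, 12.91, 13.17 and 12.91 in Y3, 13.23, 13.20 and 13.87 in N4 plus steroid and 13.63, 13.41 and 13.89 in N4. Both peptide comparisons were free of overlap. The differences were -0.68 ± 0.18 with steroid and -0.65 ± 0.18 without, with adjusted p = 0.0486 and 0.0852 with the block, and the call with steroid held in 2 of the 12 leave-out fits. Pfkl, the liver form, had log2 signals of 10.20, 8.63 and 8.56 in Y3 plus steroid, 10.17, 9.70 and 8.67 in Y3, 10.83, 10.07 and 10.61 in N4 plus steroid and 11.37, 10.19 and 10.54 in N4. It showed the widest spread of the 3 forms, with Y3 plus steroid replicate 1 above N4 plus steroid replicate 2. Its differences were -1.37 ± 0.51 with steroid and -1.19 ± 0.51 without, with adjusted p = 0.0284 and 0.0756 with the block, and the call with steroid held in 8 of the 12 leave-out fits.

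The Pfkfb enzymes make and remove the sugar bisphosphate that activates phosphofructokinase, and none passed. Pfkfb3, the form with the strongest activating balance, had log2 signals of 8.62, 8.06 and 8.06 in Y3 plus steroid, 8.28, 8.93 and 7.99 in Y3, 7.42, 8.03 and 9.51 in N4 plus steroid and 8.33, 8.21 and 9.37 in N4. Replicate 3 was highest in both N4-primed groups but lowest in Y3, so the peptide difference, -0.07 ± 0.50 with steroid and -0.24 ± 0.50 without, had no settled direction. It became 0.52 without N4 plus steroid replicate 3 and 0.13 without N4 replicate 3. Pfkfb2, the heart form, was close to background, at 5.73, 5.93 and 5.75 in Y3 plus steroid, 5.84, 6.04 and 5.81 in Y3, 5.72, 5.90 and 5.66 in N4 plus steroid and 5.61, 5.82 and 5.64 in N4. It had a difference of 0.21 ± 0.10 without steroid (adjusted p = 0.149 with the block), the highest of the 34 there. Pfkfb4, a hypoxia-inducible form, read 6.26, 6.67 and 6.65 in Y3 plus steroid, 6.47, 6.70 and 6.58 in Y3, 6.52, 6.82 and 6.65 in N4 plus steroid and 6.50, 6.80 and 6.42 in N4. It differed by -0.14 with steroid and 0.01 without.

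**Figure D3:**
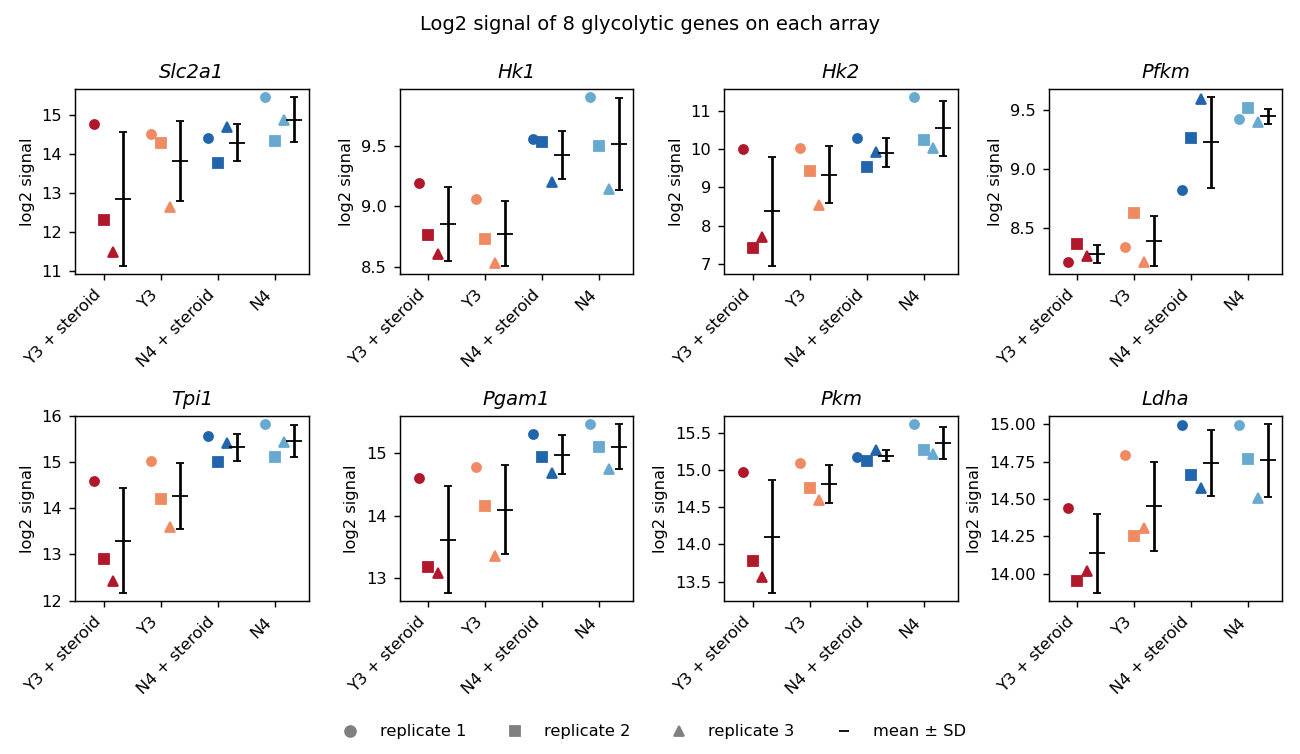
Log2 signal of 8 genes on each array, with groups along the horizontal axis, a symbol for each replicate number, and the mean and SD of 3 arrays beside the points. In Y3 plus steroid, replicate 1 lies above replicates 2 and 3 for 7 of the genes, Pfkm being the exception. Vertical axes are scaled separately and do not start at 0.

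Aldolase and triosephosphate isomerase carry the sugar from the split into triose phosphates. Aldoa, the main aldolase of most cells, had log2 signals of 12.74, 12.54 and 12.28 in Y3 plus steroid, 13.00, 13.17 and 13.12 in Y3, 12.88, 13.22 and 13.44 in N4 plus steroid and 13.12, 13.28 and 13.45 in N4. The Y3 plus steroid arrays were the lowest of the 12, whereas Y3 overlapped N4. The peptide difference was -0.66 ± 0.16 with steroid (adjusted p = 0.0421 with the block, a call that held in 2 of the 12 leave-out fits) and -0.19 ± 0.16 without (adjusted p = 0.674). Aldoc, the brain form, which HIF-1 is known to raise, read 12.40, 11.80 and 11.13 in Y3 plus steroid, 12.58, 13.38 and 12.79 in Y3, 11.22, 13.48 and 13.36 in N4 plus steroid and 12.44, 13.71 and 13.34 in N4. N4 plus steroid replicate 1 lay far below its companions, and the difference with steroid, -0.91 ± 0.59, was 1.17, -1.68 and -2.23 in pairs 1, 2 and 3 and did not pass.

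Tpi1, which interconverts both triose phosphates, showed the largest peptide difference of the 34 with steroid. Its log2 signals were 14.59, 12.90 and 12.42 in Y3 plus steroid, 15.03, 14.20 and 13.60 in Y3, 15.56, 15.00 and 15.42 in N4 plus steroid and 15.83, 15.12 and 15.45 in N4. Y3-primed arrays lay below the N4-primed arrays of the same steroid condition without overlap. Tpi1 differed by -2.02 ± 0.52 with steroid, 0.246 times the N4 plus steroid level, with pairs at -0.97, -2.10 and -2.99. The adjusted p was 0.145 without the block and 0.00898 with it, and the blocked call held in 11 of the 12 leave-out fits. Without steroid the difference was -1.19 ± 0.52 (adjusted p = 0.0985 with the block). Without the block, the difference with steroid passed when Y3 plus steroid replicate 1 was left out, at -2.67, or when replicate number 1 was left out of all groups, at -2.55.

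Below the triose step, each carbon passes through reactions that repay ATP. Gapdh, the dehydrogenase of the pathway that is widely used as a reference gene, had log2 signals of 18.42, 18.32 and 18.31 in Y3 plus steroid, 18.54, 18.51 and 18.49 in Y3, 18.56, 18.54 and 18.49 in N4 plus steroid and 18.66, 18.65 and 18.52 in N4. Its range over the 12 arrays was 0.35, and its mean lay at the 99.7th percentile of all genes. The 3 Y3 plus steroid arrays were the lowest of the 12, at a difference of -0.18 ± 0.07 from N4 plus steroid (adjusted p = 0.181 with the block). Pgk1, the first ATP-making enzyme, read 17.05, 16.44 and 16.36 in Y3 plus steroid, 17.20, 17.05 and 17.20 in Y3, 17.20, 17.41 and 17.41 in N4 plus steroid and 17.49, 17.52 and 17.45 in N4. It differed by -0.72 ± 0.16 with steroid and -0.34 ± 0.16 without, with adjusted p = 0.0294 and 0.358 with the block, and the call held in 8 of the 12 leave-out fits.

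Pgam1, the phosphoglycerate mutase of most tissues, had log2 signals of 14.60, 13.17 and 13.07 in Y3 plus steroid, 14.77, 14.14 and 13.35 in Y3, 15.30, 14.93 and 14.68 in N4 plus steroid and 15.46, 15.09 and 14.75 in N4. Y3 plus steroid replicates 2 and 3 and Y3 replicate 3 stood lowest. Pgam1 differed by -1.36 ± 0.44 with steroid (0.391 times) and -1.01 ± 0.44 without (0.496 times), with adjusted p = 0.00779 and 0.042 with the block, against 0.252 and 0.567 without it. The blocked call held in 12 of the 12 leave-out fits with steroid and in 4 without. Bpgm, which makes the bisphosphoglycerate of red cells, had log2 signals of 6.55, 6.73 and 6.54 in Y3 plus steroid, 6.65, 6.79 and 6.59 in Y3, 6.69, 6.58 and 6.25 in N4 plus steroid and 6.92, 6.61 and 6.42 in N4. It differed by 0.10 ± 0.15 with steroid and 0.03 ± 0.15 without.

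Eno1, the ubiquitous enolase, read 15.43, 14.59 and 14.38 in Y3 plus steroid, 15.77, 15.28 and 15.08 in Y3, 15.92, 15.75 and 15.59 in N4 plus steroid and 16.15, 15.93 and 15.64 in N4. The groups with steroid did not overlap, and the groups without steroid did. Its differences were -0.95 ± 0.27 with steroid and -0.53 ± 0.27 without, with adjusted p = 0.00543 and 0.0763 with the block, and the call with steroid held in all 12 leave-out fits. Eno2, the neuronal enolase, was above background only on N4 plus steroid replicate 3. Eno3, the muscle enolase, had log2 signals of 11.16, 10.19 and 10.93 in Y3 plus steroid, 11.55, 10.92 and 11.60 in Y3, 11.97, 10.30 and 10.56 in N4 plus steroid and 12.03, 10.76 and 10.83 in N4. The 4 groups overlapped, and its direction turned with single arrays, for example to 0.33 without N4 plus steroid replicate 1, against -0.18 with all arrays in the comparison with steroid.

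Pkm, the pyruvate kinase gene whose M2 splice form is typical of dividing cells, had log2 signals of 14.97, 13.77 and 13.57 in Y3 plus steroid, 15.10, 14.75 and 14.60 in Y3, 15.17, 15.13 and 15.27 in N4 plus steroid and 15.62, 15.26 and 15.22 in N4. Isoforms are not separated at gene level. Neither peptide comparison overlapped, and the Y3 plus steroid replicates 2 and 3 stood more than 1 log2 unit below replicate 1. Pkm differed by -1.09 ± 0.31 with steroid and -0.55 ± 0.31 without, with adjusted p = 0.0256 and 0.283 with the block, and the call with steroid held in 8 of the 12 leave-out fits. Several genes of the lower pathway have processed copies in the mouse genome, and probe matches to such copies were not tested.

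Lactate dehydrogenase turns pyruvate into lactate. Ldha, the subunit that favours lactate formation, read 14.44, 13.95 and 14.02 in Y3 plus steroid, 14.79, 14.25 and 14.31 in Y3, 14.99, 14.66 and 14.57 in N4 plus steroid and 14.99, 14.77 and 14.51 in N4. The differences within pairs were close together, at -0.55, -0.71 and -0.55 with steroid, and the 3 Y3 plus steroid arrays lay below all N4 plus steroid arrays. Ldha differed by -0.61 ± 0.20 with steroid (0.657 times) and -0.31 ± 0.20 without, with adjusted p = 0.0056 and 0.105 with the block, and the call with steroid held in 12 of the 12 leave-out fits. Ldhb, the subunit that favours pyruvate formation, had log2 signals of 6.35, 6.48 and 6.49 in Y3 plus steroid, 6.39, 6.86 and 6.68 in Y3, 6.41, 6.59 and 6.84 in N4 plus steroid and 6.66, 6.70 and 6.72 in N4. Its peptide differences, -0.17 ± 0.13 with steroid and -0.05 ± 0.13 without, did not pass.

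Lactate leaves or enters cells with a proton through the monocarboxylate carriers. Slc16a3, the exporter MCT4 of glycolytic cells, had log2 signals of 9.81, 7.52 and 7.0 in Y3 plus steroid, 9.64, 8.73 and 7.35 in Y3, 10.14, 8.91 and 9.39 in N4 plus steroid and 10.63, 9.19 and 9.07 in N4. It varied by more than 3 log2 units over the arrays, and replicate 1 was high in every group. It differed by -1.37 ± 0.79 with steroid and -1.06 ± 0.79 without, with adjusted p = 0.0618 and 0.185 with the block. Slc16a1, the two-way carrier MCT1, read 11.08, 10.75 and 11.05 in Y3 plus steroid, 11.67, 10.77 and 11.04 in Y3, 12.08, 11.23 and 10.52 in N4 plus steroid and 12.17, 11.52 and 10.55 in N4. Replicate 1 was the highest array in every group. The peptide differences of -0.32 ± 0.45 with steroid and -0.25 ± 0.45 without turned to 0.09 without N4 plus steroid replicate 1 and to 0.12 without N4 replicate 1.

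Pyruvate enters mitochondria through the carrier made of Mpc1 and Mpc2 and is oxidised by pyruvate dehydrogenase. Mpc1 had log2 signals of 6.94, 6.48 and 6.36 in Y3 plus steroid, 7.0, 6.36 and 6.50 in Y3, 7.40, 6.80 and 6.66 in N4 plus steroid and 7.49, 6.87 and 6.87 in N4. Replicate 1 was the highest array of each group, and within each pair the Y3-primed array was lower, with differences of -0.46, -0.32 and -0.30 with steroid and -0.49, -0.51 and -0.37 without. Mpc1 differed by -0.36 with steroid, with adjusted p = 0.0311 with the block and 0.717 without it, and by -0.46 without steroid, with adjusted p = 0.0201 and 0.709. These calls held in 4 and 7 of the 12 leave-out fits. On Y3 plus steroid replicate 3 Mpc1, at 6.36, was below the background line of that array, at 6.40. Mpc2, its partner, was close to background, at 6.40, 6.24 and 6.22 in Y3 plus steroid, 6.34, 6.31 and 6.24 in Y3, 6.17, 6.21 and 6.16 in N4 plus steroid and 6.46, 6.25 and 6.14 in N4. The Y3 plus steroid arrays lay just above all N4 plus steroid arrays, at a difference of 0.10 ± 0.09, which did not pass.

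Pdha1 and Pdhb encode both chains of the first pyruvate dehydrogenase component. Pdha1 differed by -0.23 ± 0.12 with steroid and -0.30 ± 0.12 without (adjusted p = 0.246 with the block), and Pdhb by -0.23 ± 0.24 and -0.38 ± 0.24. Pdk1, the kinase that switches the complex off and a HIF-1 target, had log2 signals of 10.05, 9.64 and 9.27 in Y3 plus steroid, 9.68, 10.28 and 9.62 in Y3, 9.44, 10.37 and 10.72 in N4 plus steroid and 9.95, 10.30 and 10.51 in N4. Its differences were -0.53 ± 0.33 with steroid and -0.39 ± 0.33 without, neither of which passed. Hif1a, the oxygen-regulated subunit of HIF-1, which is controlled largely by protein breakdown, read 15.24, 15.57 and 15.41 in Y3 plus steroid, 14.81, 15.44 and 15.35 in Y3, 15.49, 15.52 and 16.01 in N4 plus steroid and 15.15, 15.46 and 15.80 in N4. Its mRNA differed by -0.27 ± 0.22 with steroid and -0.27 ± 0.22 without, and the groups overlapped.

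The second question was what the steroid did under each peptide. In Y3 plus steroid against Y3, 30 of the 34 genes were lower, with a median log2 difference of -0.20, against 0.00 over all genes. In N4 plus steroid against N4, 30 were lower as well, with a median of -0.14, against 0.00 over all genes. The medians of pairs 1, 2 and 3 were -0.08, -0.34 and -0.18 in Y3-primed cells and -0.26, -0.12 and -0.01 in N4-primed cells. By limma, 0 genes passed in either comparison, without or with the block, where 0% of all genes passed in Y3-primed cells in either fit and at most 0.00253% in N4-primed cells. At an unadjusted p under 0.05 without the block, 4 of the 34 were lower in Y3-primed cells, against 1.69% of all genes lower, and 0 in N4-primed cells, against 0.849%. Higher were 0 of the 34 in both, against 1.5% of all genes in Y3-primed and 1.05% in N4-primed cells. With the block 9 had an unadjusted p under 0.05 in Y3-primed cells, all lower, where 6.71% of all genes did, and 0 in N4-primed cells, where 3.32% did. The Y3 plus steroid arrays also enter the peptide comparison with steroid, so these results are not independent of each other.

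The 4 genes were Aldoa, Pgk1, Pkm and Gapdh. Aldoa differed by -0.57 ± 0.16 in Y3 plus steroid against Y3 (95% interval -0.93 to -0.22), with pairs at -0.25, -0.63 and -0.84 and an unadjusted p of 0.00446, and the adjusted p with the block was 0.46. Pgk1 differed by -0.53 ± 0.16, Pkm by -0.71 ± 0.31 and Gapdh by -0.16 ± 0.07. In N4 plus steroid against N4 the same genes differed by -0.10, -0.14, -0.18 and -0.08, in that order. The Y3 plus steroid arrays lay wholly below the Y3 arrays for Aldoa, Aldoc, Gapdh and Pfkp, against 4.16% of all genes, and the N4 plus steroid arrays wholly below the N4 arrays for Pgk1, against 2.23% of all genes. The reverse was found for 0 genes, against 4.27% of all genes under Y3 and 2.77% under N4. Signals were lower with steroid in 3 of 3 pairs for 17 genes under Y3, against 16.6% of all genes, and for 17 under N4, against 13.5%.

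The largest steroid differences in Y3-primed cells came with wide spread between pairs. Aldoc differed by -1.14 ± 0.59, with pairs at -0.18, -1.58 and -1.67. Tpi1 differed by -0.97 ± 0.52 (95% interval -2.12 to 0.18), with pairs at -0.44, -1.30 and -1.18. Slc2a1 differed by -0.97 ± 0.77 and Hk2 by -0.96 ± 0.65, and in both the first pair stood near or above 0, at 0.26, -1.99 and -1.17 for Slc2a1 and -0.02, -2.03 and -0.84 for Hk2. All 3 pairs were lower for Eno1, at -0.35, -0.69 and -0.70, and for Ldha, at -0.36, -0.31 and -0.29, with adjusted p = 0.346 and 0.45 with the block. Slc2a6 had the highest value, 0.27 ± 0.33, followed by Hif1a at 0.21 ± 0.22 and Hk1 at 0.08 ± 0.22.

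In N4-primed cells Slc2a3, Hk2 and Slc2a1 had the lowest values. Slc2a3 differed by -0.64 ± 0.44, Hk2 by -0.63 ± 0.65 and Slc2a1 by -0.59 ± 0.77, each with the largest change in pair 1, at -1.28, -0.42 and -0.22 for Slc2a3 and -1.07, -0.71 and -0.12 for Hk2. The highest values were those of Hif1a, at 0.21 ± 0.22, Pfkfb4, at 0.09 ± 0.14, and Pfkfb2, at 0.07 ± 0.10. Ldha differed by -0.02 ± 0.20, with pairs at 0.00, -0.11 and 0.06. Its direction, and those of Tpi1, Aldoa and Aldoc, turned when single arrays were left out.

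**Figure D4:**
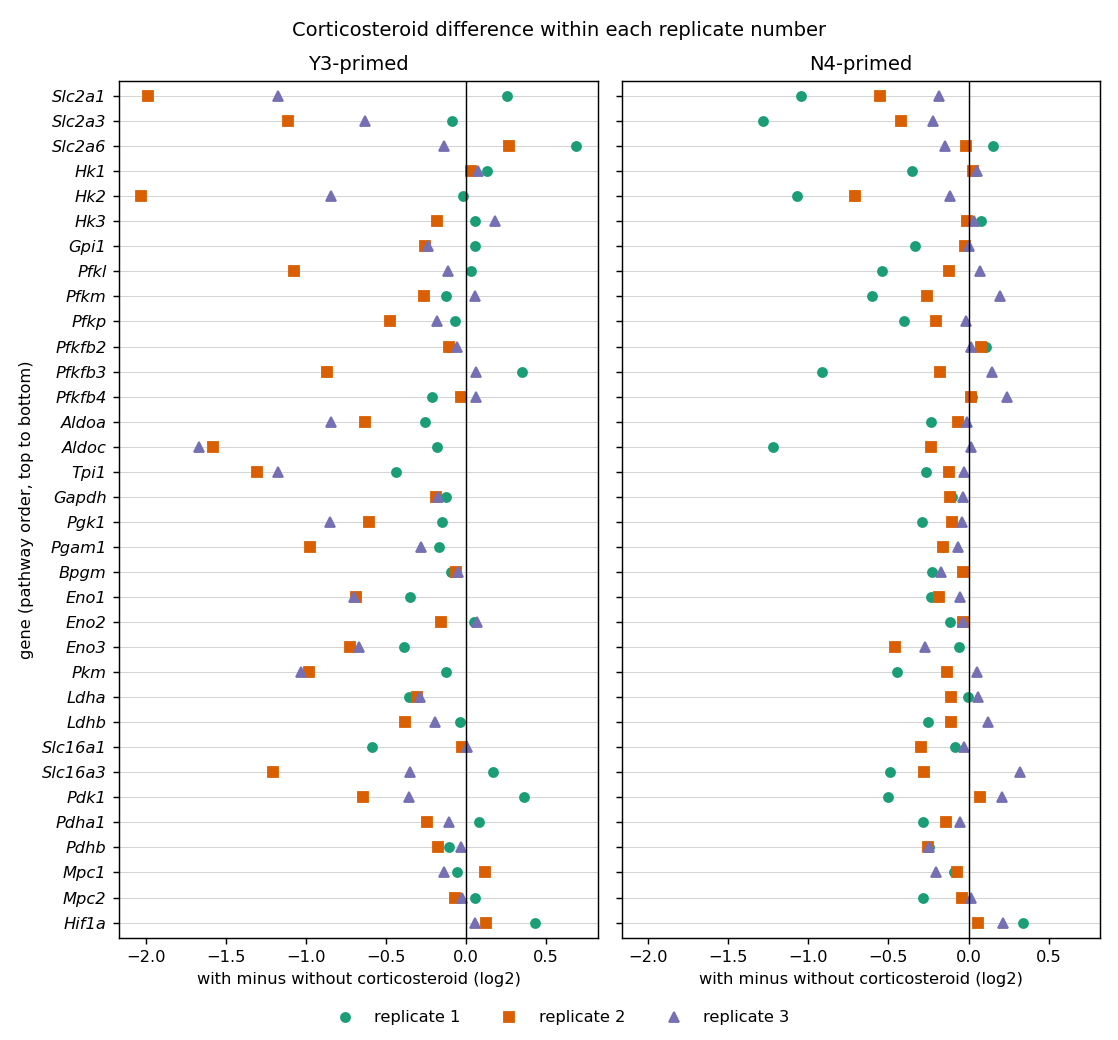
Log2 difference with minus without steroid for each of the 34 genes within replicate numbers 1, 2 and 3, in Y3-primed cells on the left and N4-primed cells on the right. In Y3-primed cells most of the largest decreases belong to replicates 2 and 3, for example -1.30 and -1.18 for Tpi1, and in N4-primed cells to replicate 1, for example -1.28 for Slc2a3. The zero line marks no difference.

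The difference between both steroid effects was tested as the interaction. Its median over the 34 genes was -0.10, with 22 below 0, against 0.00 over all genes, and the medians of replicate numbers 1, 2 and 3 were 0.19, -0.25 and -0.18. By limma 0 of the 34 passed, without or with the block, where 0% of all genes passed, and 0 of the 34 had an unadjusted p under 0.05 without the block, against 0.806% of all genes lower and 0.902% higher. With the block 1 gene, Ldha, had an unadjusted p under 0.05, where 2.79% of all genes did. The lowest values were -0.83 ± 0.73 for Tpi1 (95% interval -2.46 to 0.79), -0.66 ± 0.83 for Aldoc and -0.54 ± 0.43 for Pkm. The intervals are wide enough to hold both 0 and a difference of 1 log2 unit or more for these genes. The steroid effect on these genes is therefore not shown to differ between the peptides.

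Genes around the pathway were examined by lists of known function, and the calls named here were made with the block unless stated. Of 12 regulators of glycolytic genes, 2 were higher and 1 lower in Y3-primed cells in each peptide comparison. Of all genes, 3.44% were called higher and 3.09% lower with steroid, and 1.7% higher and 1.24% lower without. Txnip, the thioredoxin-interacting protein that takes glucose transporters off the cell surface, had log2 signals of 14.89, 15.76 and 15.95 in Y3 plus steroid, 13.69, 14.57 and 14.02 in Y3, 11.61, 14.55 and 13.26 in N4 plus steroid and 11.75, 12.97 and 11.96 in N4. It rose, with a log2 difference of 2.39 with steroid and 1.87 without, with adjusted p = 0.00761 and 0.0347. Steroid itself gave differences of 1.44 ± 0.64 in Y3-primed and 0.92 ± 0.64 in N4-primed cells, neither of which passed. Mlxip, which encodes the glucose-responsive factor MondoA, rose, with a log2 difference of 1.06 with steroid and 0.76 without, with adjusted p = 0.00347 and 0.0197.

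Myc, a driver of growth and of glycolytic genes, had log2 signals of 13.53, 13.12 and 13.92 in Y3 plus steroid, 13.39, 12.74 and 13.48 in Y3, 14.92, 13.84 and 14.15 in N4 plus steroid and 14.74, 14.02 and 14.33 in N4. It fell, with a log2 difference of -0.78 with steroid and -1.16 without in Y3-primed against N4-primed cells, with adjusted p = 0.0403 and 0.0151. The steroid differences of Myc were 0.32 ± 0.32 in Y3-primed and -0.06 ± 0.32 in N4-primed cells.

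Among 14 hypoxia-inducible genes outside glycolysis, the mean difference of Y3-primed from N4-primed cells was below 0 for all 14, with a median of -1.14 with steroid and -1.01 without. The replicate pairs differed widely. The medians of pairs 1, 2 and 3 were 0.14, -1.01 and -2.74 with steroid, and -0.68, -0.37 and -2.12 without. In pair 1 with steroid 6 of the 14 were below 0, and 6 of the 14 were lower in all 3 pairs with steroid, against 10 of 14 without. Of the 14, 4 were called lower with steroid and 1 without, where 3.09% and 1.24% of all genes were. Above background were 13 of the 14 on at least 1 array and 10 on all 12 arrays. P4ha2, a collagen prolyl hydroxylase, fell, with log2 differences of -1.69 and -1.59, with adjusted p = 0.0194 with steroid and 0.0402 without. Ero1l, an oxidase of the endoplasmic reticulum, read 14.22, 12.26 and 11.55 in Y3 plus steroid, 14.65, 13.75 and 12.41 in Y3, 15.05, 14.81 and 15.38 in N4 plus steroid and 16.26, 15.45 and 15.93 in N4. It differed by -2.40 with steroid (adjusted p = 0.0259) and -2.28 without (adjusted p = 0.0512). Bnip3, a mitochondrial receptor for autophagy, differed by -2.76 with steroid (adjusted p = 0.0351). Higd1a, a small mitochondrial protein, fell, with a log2 difference of -0.53 with steroid (adjusted p = 0.0425).

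Of 13 genes of glycogen and glucose synthesis, 5 were called lower in Y3 plus steroid than in N4 plus steroid, where 3.09% of all genes were. In Y3 against N4 without steroid 3 were called lower, where 1.24% of all genes were. None was called higher, and the mean difference was above 0 for 2 of the 13 in each comparison. Gys1, glycogen synthase, had log2 signals of 8.86, 8.27 and 7.89 in Y3 plus steroid, 8.99, 8.50 and 8.31 in Y3, 9.63, 9.89 and 10.18 in N4 plus steroid and 10.57, 10.11 and 10.39 in N4. All 6 Y3-primed arrays lay below all 6 N4-primed arrays, and the difference with steroid, -1.56 ± 0.26, also passed without the block (adjusted p = 0.0499), at 0.007 with it. Without steroid it was -1.76 ± 0.26, with adjusted p = 0.0706 without the block and 0.00792 with it. Pcx, pyruvate carboxylase, had log2 signals of 6.37, 5.48 and 5.58 in Y3 plus steroid, 6.81, 5.49 and 5.58 in Y3, 8.64, 7.79 and 6.90 in N4 plus steroid and 8.46, 7.71 and 6.53 in N4. It was called lower with steroid (adjusted p = 0.00347) and without (0.0132), but only 1 of 3 arrays was above background in Y3 plus steroid and 1 of 3 in Y3, against 3 of 3 in each N4-primed group, so no fold is given. Pck2, mitochondrial phosphoenolpyruvate carboxykinase, Pgm2, a phosphoglucomutase, and Ugp2, which makes UDP-glucose, were called lower in Y3 plus steroid than in N4 plus steroid. Their log2 differences were -1.52, -1.69 and -0.68 in that order, with adjusted p = 0.0252, 0.0245 and 0.00786.

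**Figure D5:**
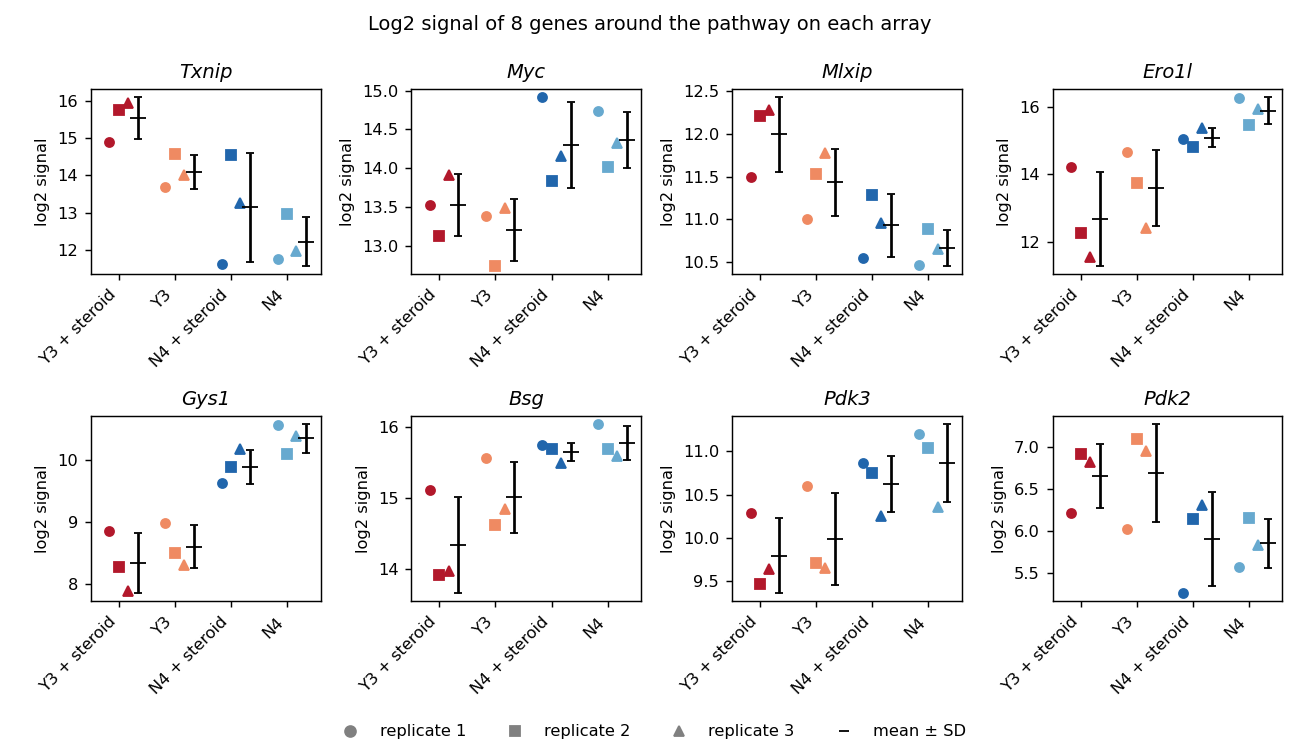
Log2 signal of 8 genes around the pathway on each array, with groups along the horizontal axis, a symbol for each replicate number, and the mean and SD of 3 arrays beside the points. Txnip, Mlxip and Pdk2 have higher means in both Y3-primed groups, and Myc, Ero1l, Gys1, Bsg and Pdk3 lower ones. Vertical axes are scaled separately and do not start at 0.

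Of 10 genes of the cytosolic NADH shuttles, 2 were called lower and 0 higher in Y3-primed cells in each peptide comparison. Of 12 other pyruvate and lactate genes, 2 were called lower and 2 higher with steroid, and 1 lower and 1 higher without. Of all genes, 3.09% were called lower and 3.44% higher with steroid, and 1.24% lower and 1.7% higher without. Got1, the cytosolic aspartate aminotransferase of the malate-aspartate shuttle, fell, with a log2 difference of -1.05 with steroid, also without the block (adjusted p = 0.0349), and of -0.61 without steroid (adjusted p = 0.0285). Gpd2, of the glycerol phosphate shuttle, fell, with a log2 difference of -1.58 with steroid and -1.26 without, with adjusted p = 0.00199 and 0.00741. Bsg, basigin, the chaperone that brings Slc16a1 and Slc16a3 to the surface, read 15.11, 13.92 and 13.98 in Y3 plus steroid, 15.57, 14.62 and 14.84 in Y3, 15.74, 15.70 and 15.50 in N4 plus steroid and 16.04, 15.69 and 15.58 in N4. It fell, with a log2 difference of -1.31 with steroid (adjusted p = 0.00659) and differed by -0.76 without (adjusted p = 0.079).

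The other pyruvate dehydrogenase kinases moved apart in the comparisons of Y3-primed with N4-primed cells. Pdk3 fell, with a log2 difference of -0.82 with steroid and -0.87 without, with adjusted p = 0.0252 and 0.0338. Pdk2 rose, with log2 differences of 0.76 and 0.84, with adjusted p = 0.0148 with steroid and 0.0173 without. Pdpr, a regulatory subunit of the phosphatase that switches the complex on, rose, with a log2 difference of 0.41 with steroid (adjusted p = 0.0471).

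In the peptide comparisons 3.09% of all genes were called lower with steroid and 1.24% without. Of 15 genes of the tricarboxylic acid cycle, 2 were called lower in each comparison. Cs, citrate synthase, was one of them in both, with a log2 difference of -0.55 with steroid and -0.50 without, with adjusted p = 0.0198 and 0.0447. Of 8 genes of the pentose phosphate pathway, Tkt, transketolase, fell, with a log2 difference of -0.47 with steroid (adjusted p = 0.0379), and 0 passed without steroid. The list medians were -0.22 with steroid and -0.19 without for the cycle, and -0.11 and -0.01 for the pentose phosphate pathway, beside -0.44 and -0.32 for the 34 genes. The lists were not tested against each other.

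Isoenzymes typical of liver, muscle, testis and other tissues were on the whole not measurable, with 12 of 13 below background on all 12 arrays.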

How the data were processed

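RNA from 12 cultures of OT-I splenocytes was measured on mouse transcriptome arrays, 3 arrays in each of 4 groups. The authors deposited a gene-level table of linear signal, which the file headers describe as SST-RMA summarised by gene (deposited values per the file headers), and RMA is named in the submitters' processing notes without a version. The genome build of the table is not given in the sources used here. Column names N, NS, Y and YS with a replicate number were matched to the groups N4, N4 with corticosteroid, Y3 and Y3 with corticosteroid. The table holds 72688 features, of which 40123 rows carry a gene symbol, and for the 462 symbols with several rows the row with the highest mean was kept, which left 39462 genes. Signals ran from 3.27 to 994483, and log2 was taken with no pseudocount and no further scaling. The array values of the series' value table were identical on the log2 scale (largest difference 0).

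All genes were fitted with limma 3.58.1 in R 4.3.3, with the 4 groups as the design, 8 residual degrees of freedom and Benjamini-Hochberg adjustment over 39462 genes, at a two-sided threshold of 0.05. The comparisons were Y3 against N4 with and without steroid, steroid against none under Y3 and under N4, and their interaction. The same fit with the replicate number as a block had 6 residual degrees of freedom. The labels number biological replicates 1 to 3 in every group. Deviations from the group mean correlated positively in all 18 pairs of arrays with the same number (0.114 to 0.815, median 0.532, each over 0.1), against -0.704 to 0.481 (median -0.206, 5 over 0.1) in 36 pairs with different numbers, so the numbers were taken to pair the samples. The pairing was uneven: replicate 2 of both Y3-primed groups correlated better with replicate 3 than with replicate 2 of both N4-primed groups (0.423 against 0.114 for Y3 and N4, and 0.402 against 0.269 for Y3 and N4 with steroid). Deviations from a group mean sum to 0 over its 3 arrays. Positive values for the same number therefore push values for different numbers below 0, so the latter are not separate evidence. The blocked calls rest on this pairing, which was inferred from the same data. The fits were checked on simulated data with known changes. The simulated noise was independent on each array and held no shared replicate effect, so this check does not cover the pairing.

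A gene was above background on an array when it exceeded the brightest of 23 background controls, and medians of the negative controls lay at 5.58 to 6.09. On some arrays that median lay above the background line, for example at 5.77 against 5.57 on Y3 replicate 2. A signal just above the line is therefore not shown to be detected. The 34 members, 16 further lists and the rule for named genes were chosen with earlier results of these data known. Values on every array are given for main steps, for members past the threshold and for the 3 highest and 3 lowest differences of a comparison, and genes of other lists are named by p-value. Promoter sequences came from the RefSeq table for GRCm38.p6. Further tables used pandas 2.3.3 and numpy 2.4.6 under Python 3.11.15, and figures were drawn with matplotlib 3.10.9. Alternatives covered scaling, array weights, a level filter, the variance prior, the arrays in the fit, and leaving out arrays. The blocked fits under these alternatives were added after seeing the data. With 3 arrays a group, the number of arrays limits the precision.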

Additional observations from a re-analysis of the deposited data

Results flagged for a closer look

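Pfkfb2, a regulatory enzyme of phosphofructokinase, was flagged because the steroid difference had opposite directions under the peptides in all 3 pairs. The share of all genes that meet this rule was not counted, so the flag alone does not set Pfkfb2 apart. Steroid minus none was -0.11, -0.11 and -0.05 in the 3 pairs of Y3-primed arrays, and 0.11, 0.08 and 0.02 in the 3 pairs of N4-primed arrays. The interaction was -0.16 on the log2 scale, with an unadjusted limma p of 0.3 and an adjusted p of 1, and an unadjusted p of 0.122 with the block. The gene was above background on 5 of the 12 arrays.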

How the results depend on the processing

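For the peptide comparison with steroid, 0 genes passed without the block and 13 with the replicate block as an alternative, 9 passed with array weights, and leaving out arrays gave 0 to 5, the higher counts being 4 without Y3 plus steroid replicate 1, 5 without replicate number 1 and 1 without N4 plus steroid replicate 1. Without steroid, 0 became 4 with the replicate block, 1 with array weights, and 0 to 1 with arrays left out, 1 without N4 plus steroid replicate 1 or 3. The blocked 13 became 0 with only the 6 arrays of the comparison and 0 to 13 with arrays left out, while quantile scaling gave 9, the trended prior 10, and the level filter and array weights 14. The blocked 4 became 10 with array weights, 2 with the arrays of the comparison only, 5 with the level filter, and 0 to 7 with arrays left out. Those 2 were Pfkm, which was among the 4, and Hk2, which was not. The steroid comparisons and the interaction had 0 calls with the block, which changed no other call among the 34 genes. The cause was not tested.

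Median differences moved between -0.65 and -0.36 with steroid, and between -0.38 and -0.32 without, for the peptide when arrays were left out, between -0.29 and -0.09 for steroid under Y3, between -0.20 and -0.04 for steroid under N4, and between -0.26 and 0.06 for the interaction. Array weights reversed Pfkfb3, to 0.051 with steroid and 0.096 without, and Eno3 with steroid, to 0.15. Leaving out arrays reversed further genes. For the peptide with steroid the ranges were -0.51 to 0.33 for Eno3, -0.71 to 0.62 for Pfkfb3 and -0.74 to 0.086 for Slc16a1. For the peptide without steroid they were -0.16 to 0.56 for Eno3, -0.72 to 0.33 for Pfkfb3, -0.68 to 0.12 for Slc16a1 and -0.61 to 0.023 for Aldoc. For steroid under N4 they were -0.23 to 0.044 for Aldoa, -0.88 to 0.25 for Aldoc, -0.31 to 0.044 for Tpi1 and -0.14 to 0.10 for Ldha. Choosing a second row of a gene changed nothing for the 34 genes, since each has 1 row. Precision is limited by having 3 arrays in a group.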
